A study of Mus musculus with 4 samples.

Results

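The enzymes of serine synthesis and of folate-linked one-carbon metabolism were examined in sorted mammary epithelial cells. The set held Phgdh, Psat1, Psph, Shmt1, Shmt2, Mthfd1, Mthfd1l, Mthfd2, Pck2 and Asns, 10 genes of the 18194 with a named probe set. They were taken by gene symbol in the array annotation, and the brightest probe set of each gene over the 4 arrays stood for it. All 10 were found, on 25 probe sets, and all 10 passed the filter on low genes described under the processing. The cells were Comma D beta, a mouse mammary epithelial line. They were either left untreated or given doxycycline (dox) at 100 ng/ml for 1 day, then sorted by the surface protein Sca1. This gave 4 groups, Sca1+ and Sca1- cells without dox and the same fractions with it, with 1 array each. The labels do not say whether both fractions of a treatment came from the same culture. All groups shared the culture medium, which held serum, insulin and EGF. The series title names Bcl11b, but no label states which gene dox switches on. The labels name no dox-treated group without an inducible gene, so a response to the drug itself and a response to whatever it induces cannot be told apart.

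Cells make serine from the glycolytic intermediate 3-phosphoglycerate in a 3-step pathway. Phgdh oxidises it, Psat1 transfers an amino group from glutamate, and Psph removes the phosphate. Shmt1 in the cytosol and Shmt2 in mitochondria then split serine into glycine and a carbon unit carried by folate. In mitochondria Mthfd2 and Mthfd1l oxidise that unit and release it as formate, and in the cytosol Mthfd1 recaptures formate for purine and thymidylate synthesis. Pck2 is the mitochondrial phosphoenolpyruvate carboxykinase, which feeds carbon from the citric acid cycle towards 3-phosphoglycerate, and Asns makes asparagine from aspartate. Several of these genes are known targets of ATF4, the transcription factor of the amino acid response. Proliferating epithelial cells draw on the pathway for nucleotide synthesis.

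Values are the authors' log2 expression levels, with a floor at 3.32, a linear level of 10. Levels of different probe sets cannot be set against each other, so differences were taken within a probe set. Exceptions, named where they occur, are averages over the probe sets of a gene and summed levels of marker genes. The brightest probe sets weigh most in such sums. Since each group is 1 array, there is no replicate error, no test was made, and each difference compares single arrays. Across the arrays, 44.8% to 48% of all probe sets lay at the floor. Over probe sets whose mean linear level reached 100, the array medians lay between 8.20 and 8.24. The 3' minus 5' log2 difference of the actin control probe sets, a sign of RNA integrity, ran from 0.69 on the untreated Sca1+ array to 0.91 on the dox Sca1- array. That of the Gapdh control ran from -0.10 to 0.11 on the same arrays. The part of RNA integrity in the results was not tested. The brightest Bcl11b probe set read 6.87 and 6.29 on the untreated Sca1+ and Sca1- arrays and 12.11 and 11.99 on the dox arrays. The other 3 Bcl11b probe sets went the other way in Sca1+ cells, where each lay at the floor with dox, with differences of -4.20, -2.53 and -1.58 or beyond. In Sca1- cells 2 of these 3 had differences of -0.83 and -0.99, and the remaining probe set was at the floor with and without dox. No probe set named for the gene of Sca1 was analysed here, so the sort was not checked on its own marker. Of 10 epithelial markers 9 were analysed and Krt19 was at the floor throughout. Of the 9, 4 were lower by 2-fold or more with dox in both fractions (8.56% of all genes) and none was higher, with a median of -0.90 for the mean dox differences. Krt5, a basal keratin, had levels 15.9-fold and 8.76-fold lower with dox in Sca1+ and Sca1- cells, Krt7 5.71-fold and 5.51-fold, the tight-junction gene Cldn7 6.95-fold and 4.91-fold, and Krt8 3.32-fold and 3.89-fold. The part of these differences in those of the enzymes was not tested. Epcam, an epithelial adhesion protein, read between 10.28 and 11.69 and was 2.06-fold lower with dox in Sca1+ and 1.7-fold lower in Sca1- cells. Krt14, another basal keratin, read between 11.54 and 11.92 on the 4 arrays.

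All 10 enzymes had a lower level with dox in both fractions, and they separated by size. Pck2, Mthfd1l and Psat1 were between 5.59-fold and 14.8-fold lower. The other 7 were between 1.12-fold and 2.13-fold lower. A level below that of untreated cells in both fractions was seen in 36.5% of the 12264 genes analysed. In cell populations such as these, fewer expressing cells and less RNA per cell cannot be told apart.

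**Figure D1:**
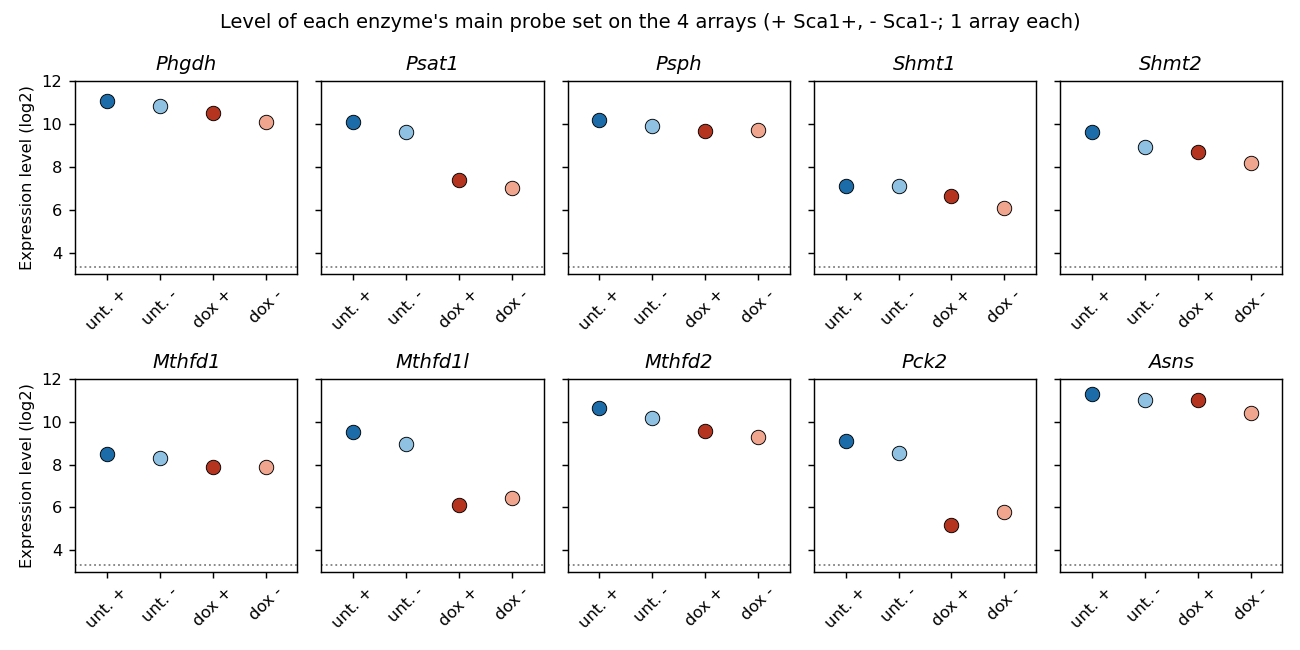
Each panel plots the log2 level of the main probe set of an enzyme (vertical axis) on each array, untreated before dox and Sca1+ before Sca1- (horizontal axis), 1 point per array, with the floor of 3.32 as a dotted line. The dox points of Psat1, Mthfd1l and Pck2 sit far below their untreated points, while those of Psph, Mthfd1 and Asns lie close to them.

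The size rule asked for a difference of 2-fold or more in both fractions. Lower by this rule were Psat1, Mthfd1l and Pck2, 3 of 10, against 8.56% of all genes. No enzyme was 2-fold higher in both fractions, against 5.29% of all genes. Taken one fraction at a time, 4 of 10 were at least 2-fold lower in Sca1+ cells (12.9% of all genes), with Mthfd2 beside them. In Sca1- cells 4 of 10 were at least 2-fold lower (11.3% of all genes), with Shmt1 beside them. The median dox difference over the 10 enzymes was -0.75 (log2) in Sca1+ cells and -0.82 in Sca1- cells, where all genes had medians of 0.03 and 0.02. For 9 of the 10, all but Asns, both untreated arrays lay above both dox arrays, an arrangement found in 29.1% of all genes. The second Asns probe set had it as well, while Shmt2 probe set 1455985_x_at and Mthfd1 probe set 1415917_at did not. The dox differences of the fractions share no array.

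Of the serine synthesis enzymes, only the middle step differed by more than 2-fold on its main probe set. Psat1, the phosphoserine aminotransferase, read 10.07 in untreated Sca1+ cells, 9.62 in untreated Sca1- cells, 7.37 in dox Sca1+ cells and 7.03 in dox Sca1- cells. The groups with and without dox were far apart and the fractions close together. Dox was thus accompanied by a level 6.49-fold lower in Sca1+ and 6.01-fold lower in Sca1- cells. Its second probe set gave a mean dox difference of -2.69, next to -2.64 for the main probe set. By the mean of its dox differences Psat1 was the 121st lowest of the 12264 genes.

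Phgdh, which catalyses the entry step of the pathway, read 11.05 and 10.82 in untreated Sca1+ and Sca1- cells and 10.52 and 10.11 with dox. Both dox arrays were below both untreated arrays, by 1.44-fold in Sca1+ and 1.64-fold in Sca1- cells. All 4 Phgdh probe sets were lower with dox in both fractions, with mean dox differences from -1.16 to -0.62, and none was 2-fold lower in both. All 4 carry a suffix by which the manufacturer marks possible cross-hybridisation. So do the main probe sets of Psat1, Shmt1, Shmt2 and Asns, and in all 11 of the 24 member probe sets not at the floor on all arrays. A further 2 probe sets, annotated to Phgdh together with a predicted gene, were left out of the gene's value. Their mean dox differences were -0.82 and -0.27.

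Psph, which completes serine synthesis, differed least with dox by the mean of its dox differences. It read 10.21 and 9.88 in untreated Sca1+ and Sca1- cells and 9.69 and 9.72 with dox. The levels with dox were nearly equal in the fractions, so the larger difference of -0.52 belonged to Sca1+ cells and the smaller of -0.16 to Sca1- cells. Psph is covered by 1 probe set.

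The serine hydroxymethyltransferases were lower with dox by intermediate amounts. The mitochondrial form, Shmt2, read 9.61 in untreated Sca1+, 8.93 in untreated Sca1-, 8.70 in dox Sca1+ and 8.18 in dox Sca1- cells, in that order from high to low. Its dox differences were -0.91 in Sca1+ and -0.75 in Sca1- cells. Over its 4 probe sets the mean dox difference ran from -1.12 to -0.17, the smallest being on probe set 1455985_x_at.

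Shmt1, the cytosolic form, read 7.12 and 7.11 in untreated Sca1+ and Sca1- cells, 6.66 in dox Sca1+ cells and 6.08 in dox Sca1- cells. The untreated fractions were equal to within 0.012, and the lowest level was that of dox Sca1- cells. The dox difference was -0.46 in Sca1+ and -1.03 in Sca1- cells. Probe set 1422198_a_at of Shmt1 was at the floor on all 4 arrays and gave no value; the other 3 had mean dox differences from -0.97 to -0.74.

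The folate enzymes that release the carbon unit from mitochondria and the enzyme that takes it up in the cytosol had unequal differences. Mthfd1l, the mitochondrial formate-releasing synthetase, read 9.53 and 8.94 in untreated Sca1+ and Sca1- cells and 6.11 and 6.46 with dox. With dox the Sca1+ level was 10.7-fold and the Sca1- level 5.59-fold lower, the 68th lowest of all genes by mean dox difference. It is represented by a single probe set, so no other probe set bears on this value.

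Mthfd2, the mitochondrial dehydrogenase and cyclohydrolase, read 10.63 and 10.15 in untreated Sca1+ and Sca1- cells and 9.54 and 9.27 with dox. Its dox differences of -1.09 and -0.88 place it on either side of the 2-fold line in the fractions. The second Mthfd2 probe set was past that line in both, with a mean dox difference of -1.06.

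Mthfd1, the trifunctional cytosolic enzyme, read 8.49 and 8.29 in untreated Sca1+ and Sca1- cells and 7.91 and 7.90 with dox. It was 1.5-fold lower with dox in Sca1+ and 1.31-fold lower in Sca1- cells. Its 3 probe sets had mean dox differences from -0.81 to -0.20. Of the 24 member probe sets that were not at the floor on all arrays, 23 were lower with dox in both fractions, and the exception was the Mthfd1 probe set 1415917_at, at -0.44 in Sca1+ and 0.03 in Sca1- cells.

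**Figure D2:**
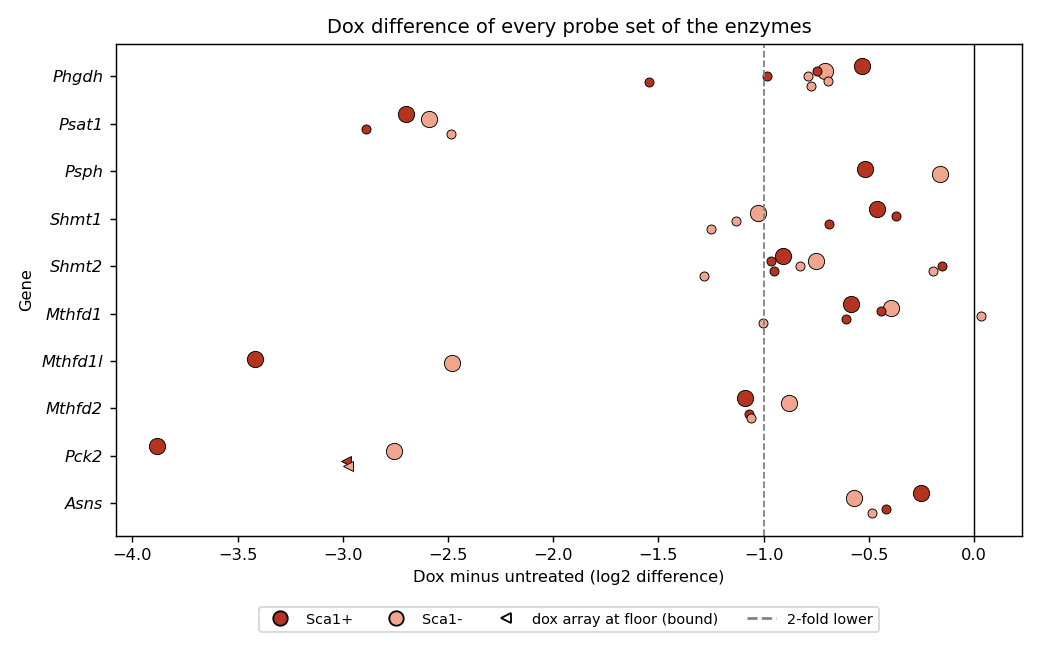
The horizontal axis gives dox minus untreated (log2) for each probe set of each enzyme (vertical axis) in Sca1+ (dark) and Sca1- (light) cells. Large symbols mark the main probe set, triangles a dox array at the floor, and the dashed line a 2-fold lower level. Both probe sets of Psat1 and of Pck2 lie well left of the line, and a single Mthfd1 point lies right of 0.

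Pck2 had the largest dox difference of the 10 enzymes, and Asns one of the smallest. Pck2 read 9.08 in untreated Sca1+, 8.55 in untreated Sca1-, 5.20 in dox Sca1+ and 5.80 in dox Sca1- cells. The Sca1+ fraction had a 14.8-fold and the Sca1- fraction a 6.75-fold lower level with dox, the 33rd lowest mean dox difference of all genes. A dimmer probe set, 1452620_at, read 6.30 on both untreated arrays and lay at the floor on both dox arrays. Its differences are bounds, each at -2.98 or beyond.

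Asns read 11.28 in untreated Sca1+, 10.99 in untreated Sca1-, 11.03 in dox Sca1+ and 10.42 in dox Sca1- cells. On this main probe set the groups overlapped, since dox Sca1+ cells were above untreated Sca1- cells. Within a fraction its level was 1.19-fold lower with dox in Sca1+ and 1.48-fold lower in Sca1- cells. The groups did not overlap on the second probe set, 1451095_at. It read 11.14 and 10.79 in untreated Sca1+ and Sca1- cells and 10.72 and 10.30 with dox. Both Asns probe sets gave mean dox differences between -0.45 and -0.41.

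The promoters of the 10 genes were searched because ATF4 binds with C/EBP partners to a composite site, the C/EBP-ATF response element (CARE), and because MYC-family factors bind the E-box. The windows run from 250 bases before to 50 bases after each start in RefSeq, build GRCm38.p6, and all 10 genes matched by symbol. The letters TGATGNAA, the core of the CARE, were found on either strand in the windows of 2 of the 10 genes, Pck2 and Asns, against 4.51% of 27025 genes and 3.97% of 32851 windows. The E-box letters CACGTG were found in none of the 10, against 8.09% of genes and 7.15% of windows. The matched stretches are shown because the genes with the largest and one of the smallest dox differences carry the same core, written in capitals on the strand of the gene. In Pck2 the match starts 103 bases before the start and lies on the opposite strand, at chr14:55540152-55540181 (plus strand). In Asns it starts 23 bases before the start, on the strand of the gene, at chr6:7693214-7693243 (minus strand).
Pck2: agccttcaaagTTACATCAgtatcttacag
Asns: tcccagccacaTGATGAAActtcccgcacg
A match of letters is a description of these windows and not evidence of a binding site.

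**Figure D3:**
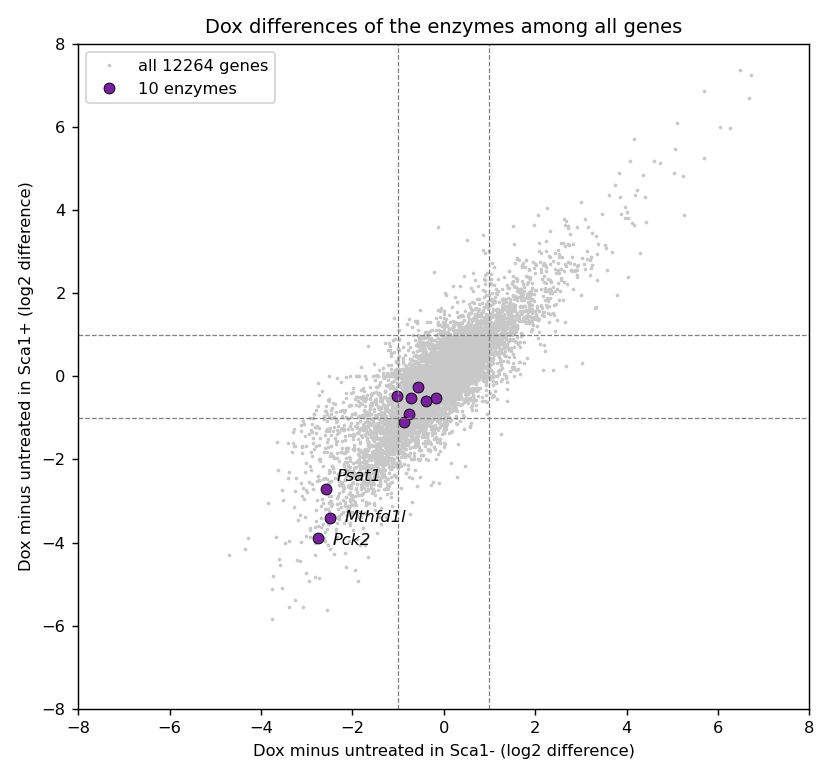
Each grey point is 1 of the 12264 genes analysed, placed by its dox minus untreated difference (log2) in Sca1- cells (horizontal axis) and in Sca1+ cells (vertical axis); the 10 enzymes are purple and dashed lines mark 2-fold differences. Psat1, Mthfd1l and Pck2 stand in the lower left corner beyond both lines, and the other 7 enzymes lie between 0 and about the 2-fold lines.

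Between the fractions, the enzymes were slightly higher in Sca1+ cells when untreated. All 10 had their highest level on the untreated Sca1+ array, against 23.7% of all genes; Shmt1 did not after centring on brighter probe sets or quantile normalisation. The untreated Sca1+ minus Sca1- difference ran from 0.01 for Shmt1 to 0.67 for Shmt2, with a median of 0.39, while all genes had a median of -0.01 and 43.7% of them were above 0. No enzyme reached 2-fold, a size at which 3.07% of all genes were higher in untreated Sca1+ cells. Shmt2, the largest, was 1.6-fold higher in Sca1+ cells. The Shmt1 difference fell just below 0 under centring on brighter probe sets and under quantile normalisation, at -0.01 in each case, so that 9 of 10 enzymes were then higher.

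With dox, 7 of the 10 enzymes were still higher in Sca1+ cells, against 42.2% of all genes (8 of 10 after centring on brighter probe sets), and the median Sca1 difference was 0.31. None was 2-fold higher in either direction, where 2.52% of all genes were higher and 2.98% lower. Asns had the largest positive difference, 0.61, and Shmt1 the next, 0.58. Mthfd1 was at 0.01 and Psph at -0.03, and Psph changed sign, to 0.01, under centring on brighter probe sets. Phgdh was at 0.41 on its main probe set, at 0.04 by the mean of its probe sets and at -0.77 on its dimmest. Mthfd1l and Pck2 were lower in Sca1+ cells with dox, at -0.35 and -0.60, although both had been higher there without dox, at 0.58 and 0.53. In 6 of the 10 enzymes the arrays fell in the order untreated Sca1+, untreated Sca1-, dox Sca1+, dox Sca1- from high to low, an order found in 6.82% of all genes. Shmt1 did not keep this order after centring on brighter probe sets or quantile normalisation. In the deposited values Mthfd1 kept it by a gap of 0.01 between the dox fractions. By main probe set the exceptions were Psph, Mthfd1l, Pck2 and Asns. The second Asns probe set followed the order, while some probe sets of Phgdh, Shmt1, Shmt2 and Mthfd1 did not.

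**Figure D4:**
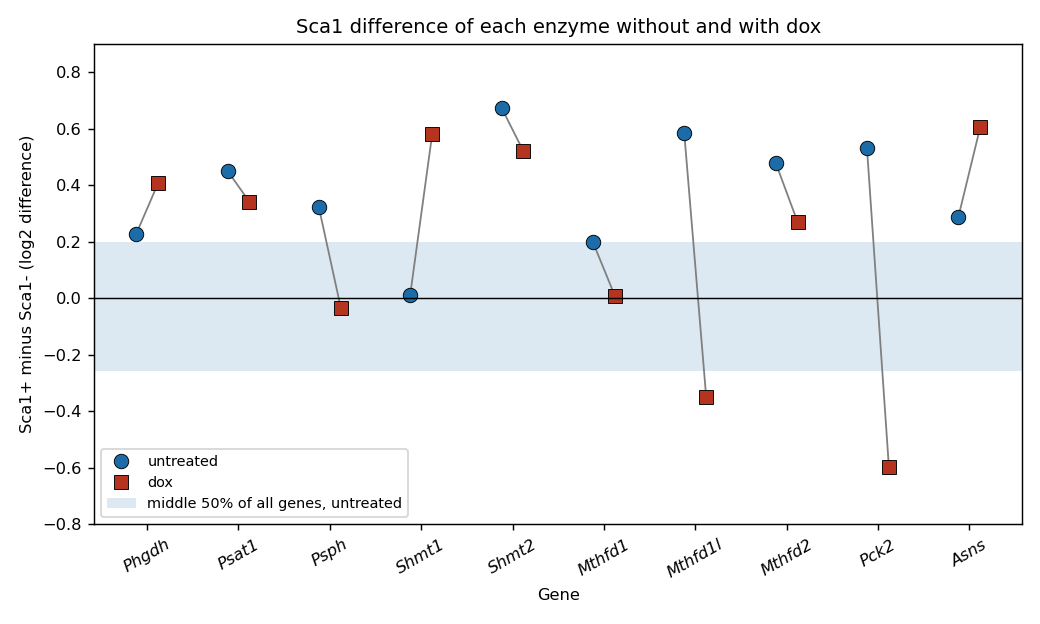
The vertical axis gives Sca1+ minus Sca1- (log2) for each enzyme (horizontal axis), untreated (circles) and with dox (squares), joined by a line, over the band that holds the middle 50% of all genes in untreated cells. All 10 circles are above 0, and the squares of Mthfd1l and Pck2 are well below it.

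The pathways that border on these enzymes were described from lists of genes, each counted over its members that passed the filter on low genes. The counts by the size rule stand beside the 8.56% of all genes lower and 5.29% higher in both fractions. All these lists, also those of ATF4 targets and proliferation, were chosen with earlier results of these data known. Their counts are therefore a description only. In the rest of the folate cycle and thymidylate synthesis, 1 of 10 genes met the size rule, downwards, and the median of the mean dox differences was -0.16. That gene was Tyms, the thymidylate synthase, with a dim probe set that read 4.64 and 4.79 in untreated Sca1+ and Sca1- cells. It lay at the floor on both dox arrays, with differences of 2.5-fold or more in Sca1+ and 2.76-fold or more in Sca1- cells. In purine synthesis, which consumes formyl-folate, 1 of 11 was lower, with a median of -0.44. That gene was Ppat, the amidotransferase that commits the pathway, at -1.03 in Sca1+ and -1.01 in Sca1- cells. Neither gene of the glycine cleavage system that was analysed, and none of 12 genes of serine transport and use, differed 2-fold in both fractions.

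In the methionine cycle and transsulfuration, 1 of 10 genes passed the size rule, downwards, and the median was -0.01. The gene was Cth, which makes cysteine from cystathionine and so lies downstream of serine. It read 9.08 and 8.23 in untreated Sca1+ and Sca1- cells and 5.67 and 5.54 with dox, 10.7-fold and 6.45-fold lower. Among enzymes of aspartate, glutamate and proline synthesis, 2 of 16 were lower, and the list median was -0.08. Gpt2, the mitochondrial alanine transaminase, read 8.93 and 8.55 in untreated Sca1+ and Sca1- cells and 6.15 and 6.49 with dox, 6.87-fold and 4.18-fold lower. Aspg, an asparaginase with a dim probe set that read at most 4.91, was 2.3-fold and 2.24-fold lower.

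Among the neighbours of phosphoenolpyruvate and 3-phosphoglycerate, 1 of 8 was lower by the size rule, with a median of -0.42. It was Me1, the cytosolic malic enzyme, at -2.90 in Sca1+ and -2.15 in Sca1- cells. Pck1, the cytosolic counterpart of Pck2, was at the floor on all 4 arrays.

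Of the ATF4 regulators and stress targets, 6 of 17 were lower by the size rule and 1 was higher, with a median of -0.92. Cebpb, a C/EBP factor, was 15.3-fold lower with dox in Sca1+ and 3.3-fold lower in Sca1- cells. Trib3, a pseudokinase that feeds back on ATF4, was 5.96-fold and 2.95-fold lower, and Sesn2, a leucine sensor of the mTORC1 pathway, 4.22-fold and 3.97-fold lower. Atf4 itself, named here after its values were seen, had dox differences of -0.66 in both fractions. The gene that was higher, Atf3, also named after its values were seen, was at 1.58 and 1.67.

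**Figure D5:**
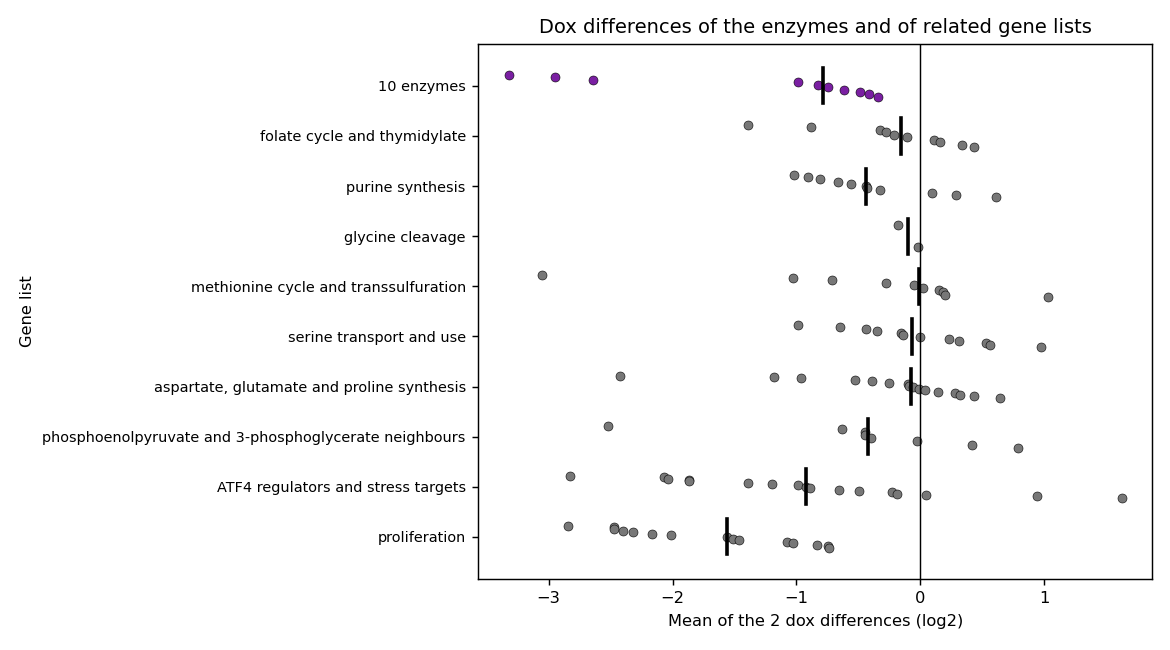
Each point is a gene analysed, placed by the mean of its dox differences in Sca1+ and Sca1- cells (log2, horizontal axis) in the row of its list (vertical axis), with the list median as a black bar and the 10 enzymes in purple. The medians of the enzymes, of the ATF4 list and of the proliferation list, at -0.79, -0.92 and -1.56, are the lowest of the 10 rows, and single genes of other lists lie near Psat1, Mthfd1l and Pck2.

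Proliferation genes were lower together with the enzymes. All 15 analysed were lower with dox in both fractions (36.5% of all genes), 9 of them at least 2-fold (8.56% of all genes), with medians of -1.15 in Sca1+ and -2.09 in Sca1- cells. This list, too, was chosen with earlier results of these data known. Mki67, the proliferation marker, was 5.92-fold and 8.69-fold lower, Rrm2, which makes deoxynucleotides, 3.59-fold and 8.56-fold, and Ccne2, a cyclin of S-phase entry, 3.2-fold and 9.67-fold. The dox differences of these 3 genes were larger in Sca1- cells. By main probe set so were those of Phgdh, Shmt1 and Asns, while those of the other 7 enzymes were larger in Sca1+ cells. Some other probe sets of Phgdh, Shmt2 and Mthfd1 went the other way. Phgdh also changed side when arrays were centred on the median of all their probe sets. The part of proliferation in the enzyme differences was not tested.

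Markers of other cell types were near the floor apart from a few genes. The summed linear level of 8 fibroblast markers was 88.9 and 105.4 on the untreated Sca1+ and Sca1- arrays and 767.2 and 433.6 on the dox arrays, with Col1a1, Col3a1 and Pdgfrb at the floor on every array. Dcn, a proteoglycan, by its brightest probe set rested at the floor untreated and read 9.41 and 8.42 with dox. The sum of 9 leukocyte markers lay between 185.4 and 1353.7, highest on the untreated Sca1- array, where Cd14, an endotoxin co-receptor, read 10.31, and with the pan-leukocyte marker Ptprc at the floor on all 4. Cd14 was 4.95-fold lower with dox in Sca1+ and 10.5-fold lower in Sca1- cells, while Cd68, a macrophage-rich lysosomal protein, was 6.91-fold and 5.27-fold higher. Endothelial sums lay between 60 and 63.6, and all 4 adipocyte markers gave the floor. The part of these genes in the enzyme differences was not tested.

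Pck2 had the largest absolute mean dox difference of the 10 enzymes, and the genes whose centred levels over the 4 arrays were nearest to it were Tirap, Phlda3, Arsb, Lypd3 and Krt5, at distances of 0.13 to 0.41 (Euclidean, log2). Tirap is an adaptor of Toll-like receptors, Arsb a lysosomal sulfatase and Krt5 a basal keratin. Tirap read 7.51 and 7.02 in untreated Sca1+ and Sca1- cells and 3.65 and 4.10 with dox. Mthfd1l came next, in place 6 of all genes at a distance of 0.41, Psat1 in place 90 at 0.95, and Asns in place 3198. With 4 arrays such a likeness describes these arrays alone.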

How the data were processed

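RNA from 4 sorted populations, 1 array each, was labelled by an Affymetrix 3' IVT protocol, per the labels' protocols. The authors deposited a log2 expression level for 45101 probe sets per array; the labels state neither summarisation, scaling, software nor genome build. A shared minimum, log2 of 10, shows a floor in the deposited values. Probe sets were named from a platform annotation (34958 with 1 gene symbol, 932 with several, 9211 unlisted). Symbols were updated through a RefSeq gene table of GRCm38.p6. Each gene took its probe set of highest mean; 12264 of 18194 genes reached 3.63, the pooled median, on 1 array or more and were analysed.

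Differences of log2 levels were taken between arrays, and at least 2-fold, an absolute log2 difference of 1, was the size rule; no test was made. Named genes were the 10 members, up to 3 genes of largest mean dox difference per related list among those 2-fold different in both fractions, and the 5 genes nearest to the member with the largest difference. The members, lists and motifs were chosen with earlier results of these data known. Alternatives covered scaling, floor, filter, probe set choice and size rule. Scripts used python 3.11.15, numpy 2.4.6, pandas 2.3.3 and matplotlib 3.10.9.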

Additional observations from a re-analysis of the deposited data

Results flagged for a closer look

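In 3 of the 10 enzymes the Sca1+ minus Sca1- difference had opposite signs without and with dox, which brought them up for a second look. The same was seen in 32.6% of all genes analysed, so this count does not set the enzymes apart. The difference itself was not tested, since each group is 1 array. Pck2 went from 0.53 to -0.60, a shift of -1.13 (log2), and 5.04% of all genes had a shift at least as large in either direction. Mthfd1l went from 0.58 to -0.35, a shift of -0.93, matched or exceeded by 8.59% of genes. Psph went from 0.32 to -0.03, a shift of -0.36, matched or exceeded by 38.8% of genes. With the probe sets of Pck2 averaged, its values were 0.27 and -0.30 and the shift -0.57. The dimmer Pck2 probe set had a Sca1 difference of 0.0069 without dox and lay at the floor with it. The signs of Pck2 and Mthfd1l held under all scalings tried, and that of Psph with dox turned to 0.01 when arrays were centred on brighter probe sets.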

How the results depend on the processing

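The results were recomputed under 11 alternatives. The 4 that set another floor or filter on low genes could not move the enzymes, which all pass them, and say nothing of stability. They did move the share of all genes at least 2-fold lower with dox in both fractions. It was 5.77% with no filter and 10% among genes whose highest array reached a linear level of 100. No median and no mean dox difference changed direction, while the near-zero Sca1 differences of Shmt1 and Psph did. Under the other 7 alternatives 72 of 76 recomputed values stayed within 0.2 (log2) or 1.5 times of the reported value. That count says little of stability, since part of it was fixed in advance. Centring shifts the mean dox differences of all enzymes by the same amount. Dropping probe sets marked for cross-hybridisation leaves an enzyme unchanged if its main probe set is unmarked. Averaging leaves an enzyme with 1 probe set unchanged. With 1.5-fold in place of 2-fold, 5 members were lower with dox in both fractions, adding Shmt2 and Mthfd2, against 15% of all genes. With 3-fold the members were still Psat1, Mthfd1l and Pck2, against 3.52% of genes. Centring each array on the median of all its probe sets, a value close to the floor, raised the untreated Sca1 median of the members to 0.61 and moved the median dox difference of all genes in Sca1+ cells from 0.03 to -0.16. Without probe sets marked for possible cross-hybridisation, Phgdh had no value, and the median dox difference of the other 9 enzymes in Sca1+ cells was -0.97. The mean of all Phgdh probe sets gave a mean dox difference of -0.85. No paired analysis was possible because each group has 1 array and so no replicate numbers to pair. The mean dox difference averages the fractions; a fit with the fraction as a block was not made, and no array was left out. The floor limits what can be said of low probe sets: the dimmer Pck2 probe set and Tyms have bounds only.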
